A study of Mus musculus with 6 samples.

Results

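Transcripts of the factors that start and extend protein chains were followed in testes of knockout and control mice. The genes were all those whose single platform symbol begins with Eif (eukaryotic initiation factor) or Eef (eukaryotic elongation factor) followed by a digit, leaving out Eif2s3y and symbols marked as pseudogenes. They came to 60 genes, read by 70 of the 21789 transcript clusters that carry 1 gene symbol. A transcript cluster is a set of array probes that together read 1 transcribed region. Each gene is given by 1 cluster, the brightest on average across the 6 arrays. The rule that picked the 60 genes used no difference between the groups, but it was set with earlier results of these data known.

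Testes were taken from pups at postnatal day 15, when the first wave of germ cells has reached the pachytene stage of meiosis. Each of 3 control and 3 knockout samples of total RNA was read on an Affymetrix gene array of its own. The genotypes, called control and knockout here, come from the labels, which say nothing of strain, of the cells in which the gene was deleted, of the alleles the controls carry, of pooling, or of whether replicates are separate animals. The p-values therefore rest on the variation among these 6 samples, and that variation may be technical. All values are the authors' normalised log2 values, differences are knockout minus control on that scale, and the number of arrays limits the precision.

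Protein synthesis begins when eIF2 brings the initiator transfer RNA to the small ribosomal subunit, together with eIF1, eIF1A, eIF3 and eIF5. The eIF4 group binds the cap of the messenger RNA and unwinds its leader, and the loaded subunit scans for a start codon. There eIF5 prompts eIF2 to hydrolyse GTP, and eIF2B later exchanges the GDP left on eIF2. Stress kinases phosphorylate eIF2 and thereby block eIF2B, while 4E-binding proteins hold the cap binder eIF4E. During elongation, eEF1A delivers charged transfer RNAs and eEF2 moves the ribosome along. Male germ cells store many messengers for later use, so control at initiation is prominent in spermatocytes and spermatids.

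The sequences upstream of the annotated starts are shown for the gene with the largest negative difference, Eif5, and for 2 more genes with negative differences, Eif1b and Eif5a2. They are 250 bases each, 5′ to 3′ on the gene's strand, from RefSeq (GRCm38.p6), at chr12:111537851-111538100 (Eif5), chr9:120492356-120492605 (Eif1b) and chr3:28781027-28781276 (Eif5a2), all on the plus strand. Capitals mark matches on either strand to the motifs searched, which here are the CCAAT box, the E-box (CACGTG) and the ETS motif (CCGGAAGT).
Eif5: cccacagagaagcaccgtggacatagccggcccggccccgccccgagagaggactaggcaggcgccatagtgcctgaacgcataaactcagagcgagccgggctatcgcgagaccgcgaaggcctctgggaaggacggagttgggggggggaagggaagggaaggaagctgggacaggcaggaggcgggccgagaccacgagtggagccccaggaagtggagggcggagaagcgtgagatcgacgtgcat
Eif1b: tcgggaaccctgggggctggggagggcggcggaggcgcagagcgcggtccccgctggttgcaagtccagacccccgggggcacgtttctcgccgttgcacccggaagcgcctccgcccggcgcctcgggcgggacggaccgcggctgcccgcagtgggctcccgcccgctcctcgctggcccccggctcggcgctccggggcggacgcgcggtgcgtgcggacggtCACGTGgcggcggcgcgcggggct
Eif5a2: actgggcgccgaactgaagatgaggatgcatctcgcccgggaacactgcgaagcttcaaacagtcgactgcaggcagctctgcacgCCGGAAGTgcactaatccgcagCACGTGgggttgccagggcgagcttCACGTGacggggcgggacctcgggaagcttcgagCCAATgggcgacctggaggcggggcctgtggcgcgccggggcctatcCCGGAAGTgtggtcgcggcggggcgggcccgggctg
The kinase gene Eif2ak2, which had the largest positive difference, is shown by 26 bases shortly after its annotated start, at chr17:78882537-78882562 on the minus strand (RefSeq, GRCm38.p6), with the core of the interferon-stimulated response element (GAAA, then any 2 bases, then GAAA again) in capitals.
Eif2ak2: tccgccggGAAAACGAAAcagaagag
Windows from 250 bases before to 50 bases after an annotated start were held for 47 of the 60 genes. The ETS motif was in 9 of the 47 (19.1%), against 6.01% of the 15614 tested genes that had such a window. The E-box was in 12 (25.5%, against 9.5%), the interferon element core in 3 (6.38%, against 3.89%), TGACGTCA in 1 (2.13%, against 2.72%), CCAAT in 17 (36.2%, against 41.7%) and the NRF1 motif in 1 (2.13%, against 1.61%). Motifs were searched on both strands, no motif contains another, and a gene with several starts counted once if any of its windows held the letters. A match is a description of these letters only. The median knockout minus control difference was 0.01 in the 9 genes with an ETS match and -0.03 in those without it, and -0.01 and -0.02 with and without an E-box. It was 0.0033 in the 3 genes with the interferon element core, Eif2ak2 included, and -0.025 in those without it. With and without CCAAT it was -0.0233 and -0.0167.

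Transcripts of translation factors differed little between knockout and control testes, and none of the 60 genes passed an adjusted p of 0.05 in limma (smallest adjusted p = 0.256, Eif5). Over all clusters tested 3 passed (0.0138%; 2 higher, 0.00918%, and 1 lower, 0.00459%). That count over all clusters was 52 without control replicate 1, 1 without control replicate 2 and 0 without each of the other 4 arrays, and none of the 60 genes was among those called in any of these fits. At an unadjusted p under 0.05, 1 gene was higher and 6 were lower, together 11.7% of the 60, where 10.6% of all clusters met that mark (4.1% higher and 6.45% lower). The count of 6 lower genes was 2 without control replicate 1, 2 without knockout replicate 3 and 3 without knockout replicate 1. In these fits 10.1%, 9.18% and 7.22% of all clusters met that mark in either direction. Over both directions the share of the 60 was thus near that of the array as a whole, but the directions differed. With all 6 arrays, the share of the 60 that was lower exceeded that of all clusters, and the share that was higher fell short of it. Whether this lean to the lower side is more than sampling variation was not tested. The median difference of the 60 genes was -0.02, with 36 below the control mean, 23 above and 1 equal, against a median of 0.0033 and 47.0% below over all clusters tested. When each array was centred on its own median, the median of the 60 was 0.0033 and that of all clusters 0.02. The difference was under 0.1 in size for 51 genes (85.0%), against 75.9% of all clusters.

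**Figure D1:**
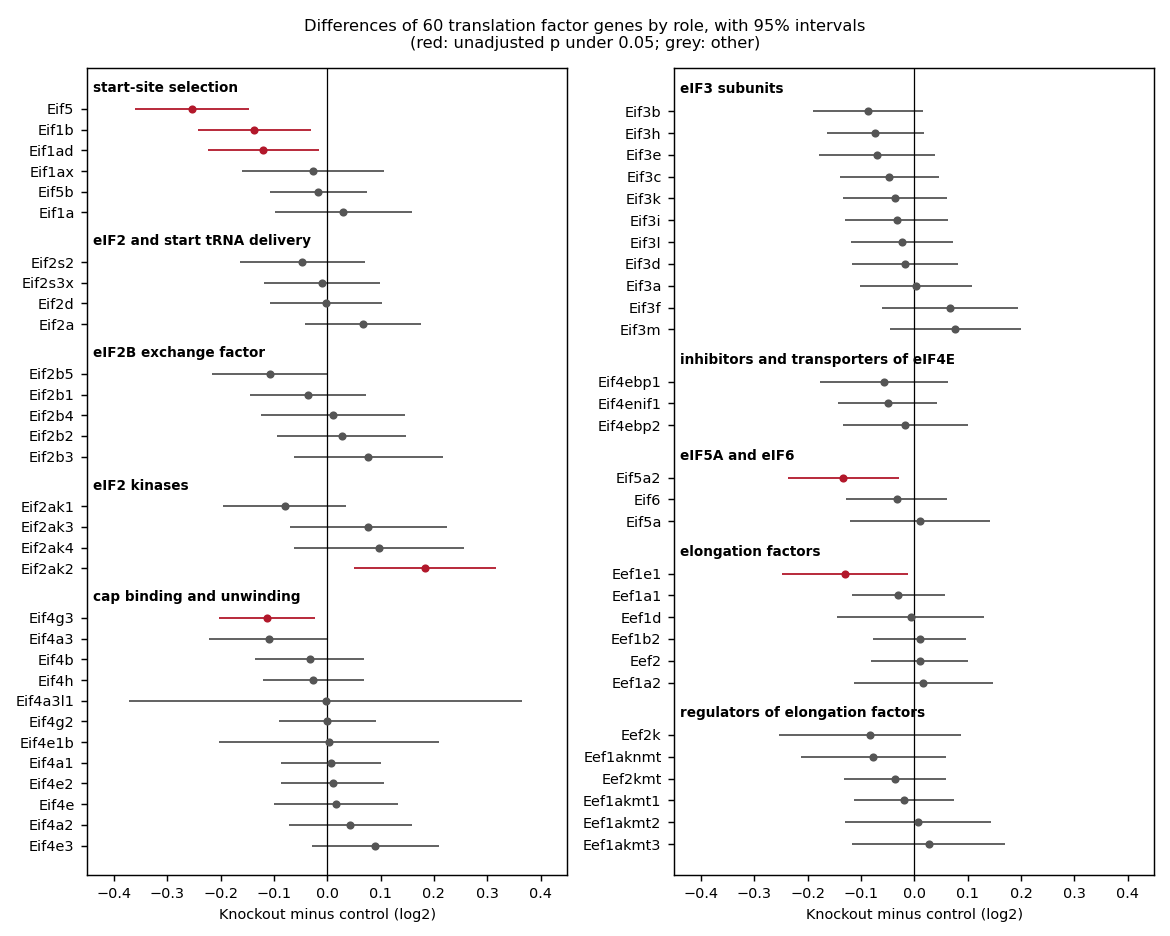
Difference between knockout and control (log2, horizontal axis) of each of the 60 genes, grouped by role, with 95% intervals from limma that are not adjusted for the number of genes. Red points have an unadjusted p under 0.05; they are Eif5, Eif1b, Eif1ad, Eif5a2, Eef1e1 and Eif4g3 on the lower side and Eif2ak2 on the higher side, and most others lie within 0.1 of zero.

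For 57 of the 60 genes the 95% interval of the difference lay within a 1.2-fold change in either direction (0.26 on the log2 scale), and for all 60 within 1.5-fold. The 3 whose intervals reached past 1.2-fold were Eif5, Eif2ak2 and Eif4a3l1, a relative of the helicase gene Eif4a3 with values around 4.89 and the widest interval (-0.37 to 0.37). The normalisation gives all arrays 1 distribution, so a change common to all transcripts would not be seen here. Nor can fewer cells of a type and less RNA per cell be told apart in whole testes.

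**Figure D2:**
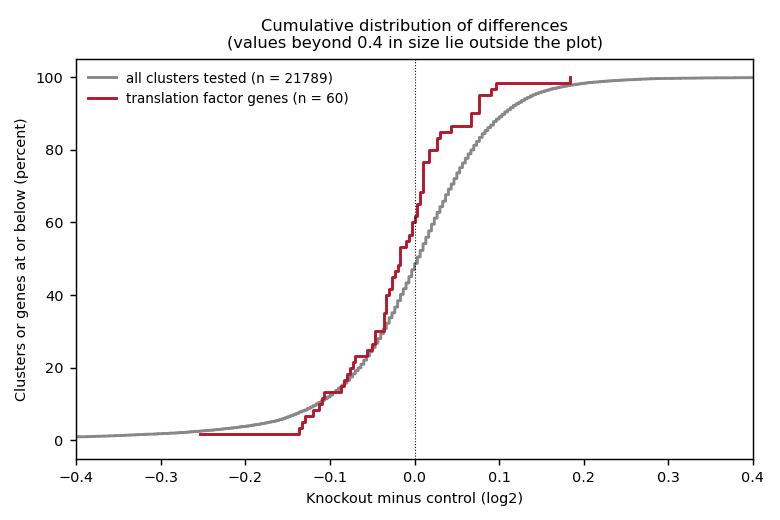
Cumulative share (percent, vertical axis) of the 60 genes and of all 21789 clusters tested at or below a given knockout minus control difference (log2, horizontal axis). The line of the 60 genes runs to the left of the other between about zero and 0.1, with a median of -0.02 against 0.0033, and 85.0% of it against 75.9% lies within 0.1 of zero.

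The group named start-site selection also takes in Eif1ad and Eif5b, described below, while Eif1 itself had no cluster of its own. In this group 5 of 6 genes had a lower mean in the knockout (median difference -0.07), as did 47.0% of all clusters. Of these, 3 had an unadjusted p under 0.05, Eif1ad among them, as did 6.45% of all clusters on the lower side. Without control replicate 1, or without knockout replicate 3, only Eif5 of these 6 genes stayed under 0.05. Eif5, the GTPase-activating partner of eIF2, is on chromosome 12 and was read by cluster 10398678. Its values were 11.80, 11.86 and 11.90 in control replicates 1 to 3 and 11.62, 11.56 and 11.62 in knockout replicates 1 to 3. Every knockout array lay below every control array, and the gap between the groups was wider than the range within either. The means were 11.85 ± 0.050 (SD, n = 3) and 11.60 ± 0.035, a difference of -0.25 (SE 0.045, fold 0.839, 95% interval -0.36 to -0.15). In limma the adjusted p was 0.256, so the gene did not pass; by unadjusted p it stood at rank 59 of the 21789 clusters. Whichever single array was left out, the difference stayed between -0.28 and -0.23, and the adjusted p ranged from 0.0637 to 0.646 over all settings tried. A second cluster carries Eif5 together with Snora28, a small nucleolar RNA gene. It read 9.16, 9.17 and 9.29 in the control and 9.09, 9.37 and 9.22 in the knockout arrays, a difference of 0.02 (SE 0.081), so it did not show the separation of the other cluster.

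Eif1b, a close relative of the scanning factor eIF1, read 11.94, 11.94 and 11.84 in control and 11.79, 11.77 and 11.75 in knockout arrays. The difference was -0.14 (SE 0.045, adjusted p = 0.388 in limma), and the groups did not overlap. Eif1ad, which encodes a protein with an eIF1A-like domain, read 10.83, 10.75 and 10.84 against 10.72, 10.68 and 10.66. Its difference was -0.12 (SE 0.044, adjusted p = 0.418), again with the control arrays all higher. The genes of eIF1A itself differed by 0.03 (Eif1a, on chromosome 18) and -0.03 (Eif1ax, on the X chromosome), and Eif5b, which joins the ribosomal subunits, by -0.02, all with overlapping groups. Each of these 3 intervals lay between -0.16 and 0.16.

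**Figure D3:**
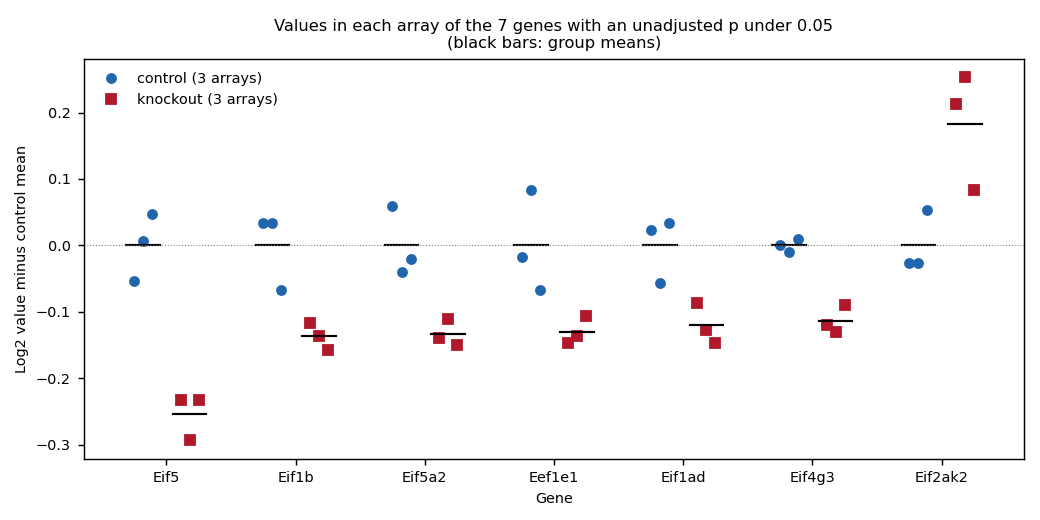
Log2 value minus the control mean (vertical axis) in each control array (blue circles) and knockout array (red squares) of the 7 genes with an unadjusted p under 0.05; black bars are group means. In all 7 the groups are separate, by the widest gap in Eif5 (11.80 for the lowest control against 11.62 for the highest knockout array).

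The heterotrimer eIF2 and the factors that bring the initiator transfer RNA showed no separation of the groups in any of 4 genes (median -0.0067). Eif2s2, the beta subunit, differed by -0.05 (SE 0.050), the X-linked gamma subunit gene Eif2s3x by -0.01 (SE 0.046) and Eif2a, an alternative initiator factor, by 0.07 (SE 0.046). Of the 5 genes of eIF2B, 2 were lower and 3 higher in the knockout on average (median difference 0.01). The catalytic subunit gene Eif2b5 read 10.19, 10.16 and 10.13 in control and 10.02, 10.12 and 10.02 in knockout arrays. These groups did not overlap, by a gap of a single step of 0.01, and the difference was -0.11 (SE 0.046, adjusted p = 0.476 in limma). Eif2b3 (0.08, SE 0.059) and Eif2b1 (-0.04, SE 0.046) overlapped between the groups, and 1 knockout array of Eif2b3, at 11.16, lay above the other values (10.93 to 10.99).

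The kinases of eIF2 had a median difference of 0.09, with 3 of 4 genes higher on average. That median was 0.0475 without knockout replicate 2 and 0.0492 without control replicate 2. Eif2ak2, which encodes the kinase PKR that is activated by double-stranded RNA, is on chromosome 17. It read 8.50, 8.50 and 8.58 in control and 8.74, 8.78 and 8.61 in knockout arrays. All knockout arrays were the higher ones, but knockout replicate 3 came within 0.03 of control replicate 3. The means were 8.53 ± 0.046 and 8.71 ± 0.089 (SD, n = 3), a difference of 0.18 (SE 0.057, fold 1.14, 95% interval 0.05 to 0.32, adjusted p = 0.376 in limma). Over the settings tried the difference was 0.15 to 0.23. Eif2ak4 (GCN2, which senses uncharged transfer RNA) differed by 0.10 (SE 0.068; 0.0367 without control replicate 2 and 0.157 without control replicate 3), Eif2ak3 (PERK, of the endoplasmic reticulum) by 0.08 (SE 0.063) and Eif2ak1 (HRI, the heme-regulated kinase) by -0.08 (SE 0.049). Only in Eif2ak1 among these 3 did the groups not overlap, with 10.81, 10.72 and 10.70 against 10.69, 10.69 and 10.61.

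Subunits of eIF3, the scaffold on the small ribosomal subunit, lay close to the control values: all 11 differed by less than 0.1, 8 below and 3 above, with a median of -0.03. Eif3b read 12.04, 12.04 and 11.95 against 11.92, 11.94 and 11.91 (difference -0.09, SE 0.044, adjusted p = 0.534). Eif3h read 12.06, 12.03 and 12.06 against 11.97, 12 and 11.96 (difference -0.07, SE 0.039, adjusted p = 0.550). In these 2 subunits the groups did not overlap, and in the other 9 they did, among them Eif3e (-0.07, SE 0.046). Eif3m had the highest difference of the subunits (0.08, SE 0.052), but its other cluster differed by -0.09 (SE 0.047), and the mean of both was -0.0050. That other cluster was slightly the brighter in control arrays (mean 10.02 against 10.00) and the dimmer in knockout arrays (9.93 against 10.08). The brightest-cluster rule thus chose the cluster with the positive difference through its knockout values.

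The cap-binding and unwinding genes were spread evenly around the control mean (6 above, 5 below, 1 equal; median 0.0017). Eif4g3, which encodes a scaffold that links the cap binder to the ribosome and is needed for male meiosis in mice, read 11.11, 11.10 and 11.12 in control and 10.99, 10.98 and 11.02 in knockout arrays. Both groups were tight and apart, with a difference of -0.11 (SE 0.038, fold 0.924, adjusted p = 0.389 in limma). Its paralogue Eif4g2, a scaffold that does not bind the cap-binding protein, had the same mean in both groups, 12.13 (SE of the difference 0.038).

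Among the helicase genes, Eif4a3, the helicase of the exon junction complex, read 9.89, 9.89 and 9.85 against 9.70, 9.83 and 9.77, with a difference of -0.11 (SE 0.047, adjusted p = 0.475). The initiation helicases Eif4a1 and Eif4a2 differed by 0.0067 (SE 0.040) and 0.04 (SE 0.049), with overlapping groups, and the other 2 clusters of Eif4a1 by 0.01 and 0.02. Of the clusters that carry both Eif4a3 and Eif4a3l1, 2 also had separate groups, with 10.97, 10.98 and 10.95 against 10.86, 10.86 and 10.84 in the one, and 10.74, 10.76 and 10.68 against 10.60, 10.65 and 10.61 in the other. Their differences of -0.11 in each came from a fit over all 35556 rows of the table, where neither passed (adjusted p = 0.558 and 0.584), and probes shared between near-identical copies may leave these clusters not independent. The differences between paralogues were not tested.

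The cap binders themselves hardly differed. Eif4e differed by 0.02 (SE 0.049), Eif4e2, a cap binder that represses translation, by 0.01 (SE 0.041), and Eif4e1b, a form known from oocytes, by 0.0033 (SE 0.088). Eif4e3 was the highest of the set (0.09, SE 0.051, adjusted p = 0.574), with 8.63, 8.60 and 8.72 against 8.77, 8.77 and 8.68, which overlap. The 3 genes that hold or carry eIF4E lay slightly below the control mean, Eif4ebp1 by -0.06, Eif4ebp2 by -0.02 and the transporter gene Eif4enif1 by -0.05, with overlapping groups and standard errors of 0.039 to 0.051.

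Eif5a2, the less widely expressed gene of eIF5A, a factor that relieves stalled ribosomes and carries the modified residue hypusine, read 10.38, 10.28 and 10.30 in control and 10.18, 10.21 and 10.17 in knockout arrays. The groups did not overlap, and the difference was -0.13 (SE 0.044, fold 0.912, adjusted p = 0.388 in limma). Its paralogue Eif5a differed by 0.01 (SE 0.056) in the cluster that stands for it and by -0.08 (SE 0.048) in its other cluster, where the groups did not overlap. Eif6, which keeps the ribosomal subunits apart, differed by -0.03 (SE 0.041).

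Elongation factors were nearly level between the genotypes, 3 higher and 3 lower on average, with a median difference of 0.0017. Eef1a1, the main carrier of charged transfer RNA, read 13.63, 13.61 and 13.63 against 13.59, 13.60 and 13.59. These groups did not overlap, yet the difference was -0.03 (SE 0.037, 95% interval -0.12 to 0.06). Eef2, the translocase, differed by 0.01 (95% interval -0.08 to 0.10), and Eef1a2, the form of muscle and neurons, by 0.02 (SE 0.056). Eef1e1, which encodes a protein of the multi-synthetase complex, read 10.92, 11.02 and 10.87 against 10.79, 10.80 and 10.83. It had the largest difference of the elongation set, -0.13 (SE 0.050, fold 0.914, adjusted p = 0.428), with separate groups. The 6 regulators of elongation factors all overlapped between the groups (median -0.03). They include Eef2k, the kinase that inhibits eEF2 (-0.08, SE 0.073), and the lysine methyltransferase genes Eef1aknmt (-0.08, SE 0.058) and Eef2kmt (-0.04, SE 0.041).

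Over all roles the control and knockout values did not overlap in 13 of the 60 genes (21.7%), 12 lower and 1 higher in the knockout. Over all clusters tested the groups did not overlap in 15.3% (8.60% lower and 6.73% higher). At or above the median level of all clusters, 1309 of 10901 clusters were lower and 841 higher without overlap. Of the 56 genes at that level, 12 were lower and 1 higher without overlap. An exact two-sided permutation test of 3 arrays against 3 cannot go below 0.1, the value these 13 genes reach.

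**Figure D4:**
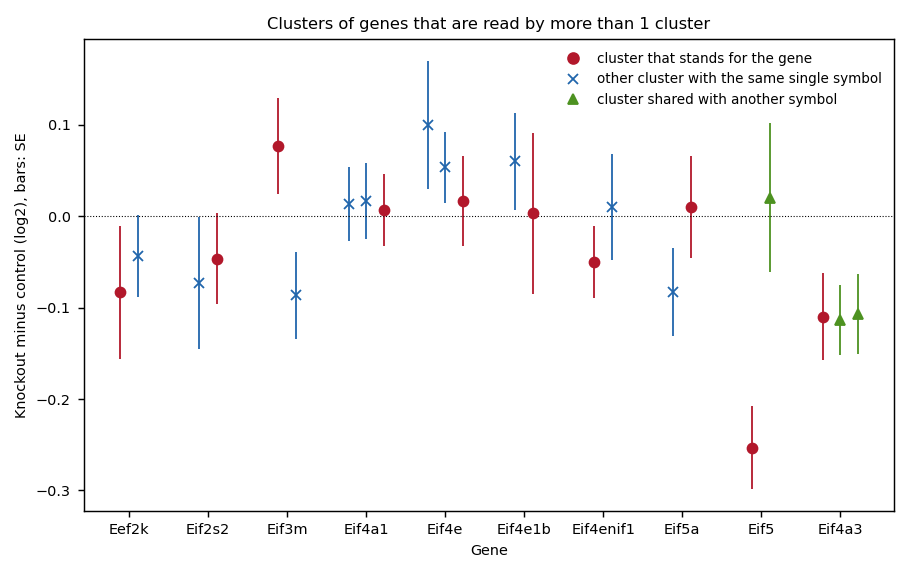
Knockout minus control difference (log2, vertical axis; bars are standard errors) of every cluster of the 8 genes with several clusters, and of Eif5 and Eif4a3 with the clusters they share with another symbol. The clusters of Eif4a3 lie together near -0.11, those of Eif3m at 0.08 and -0.09, and those of Eif5 at -0.25 and 0.02.

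The rule takes the brightest cluster, and 8 genes had several (18 clusters in all). The files do not say which of them lies at the gene and which at a copy elsewhere in the genome. Within these 8 genes the clusters had the same sign in Eef2k, Eif2s2, Eif4a1, Eif4e and Eif4e1b and opposite signs in Eif3m, Eif4enif1 and Eif5a. Every one of the 18 differences was at most 0.1 in size.

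Other genes of the translation pathway were counted from a list of 48, of which 45 were measured. None passed the adjusted threshold, and 3 were lower and 0 higher at an unadjusted p under 0.05 (6.67%, against 10.6% of all clusters), with a median of -0.0033. Pabpc2, a poly(A)-binding protein gene of male germ cells, read 8.08, 9.37 and 9.17 in control and 7.54, 7.70 and 8.23 in knockout arrays. Control replicate 1 lay among the knockout arrays, and the difference was -1.05 (SE 0.34, adjusted p = 0.378). Pabpc6, its relative, read 8.65, 9.11 and 8.96 against 8.47, 8.59 and 8.65 (difference -0.34, SE 0.11, adjusted p = 0.390), with control replicate 1 level with the highest knockout array. Pabpc1, the general form, differed by 0.02 (SE 0.038). Mtor, the kinase that signals nutrients to initiation, read 11.04, 11.02 and 10.98 against 10.92, 10.89 and 10.93 (difference -0.10, SE 0.040, adjusted p = 0.447). The 10 mitochondrial translation factors all differed by less than 0.1, 5 above and 5 below, and so did all 7 enzymes of hypusine and diphthamide, the modified residues of eIF5A and eEF2, and both selenocysteine genes. Of 9 termination and recycling genes, 2 lay above and 6 below the control mean, between -0.12 and 0.16.

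Markers of some cell types of the testis also differed with the groups. Of 15 pachytene spermatocyte markers 14 were lower on average in the knockout (median difference -0.27), 9 of them at an unadjusted p under 0.05, against 47.0% and 6.45% of all clusters. Their summed linear level was 21100 to 27000 in control and 18800 to 21500 in knockout arrays, with control replicate 1 the lowest control. The summed level of 8 markers of differentiating spermatogonia was 8440 to 9110 against 8000 to 8070, with 7 lower on average and 5 lower at that p. Of 8 markers of undifferentiated spermatogonia 4 were higher and 4 lower on average, with summed levels of 5650 to 6160 against 5700 to 5810. The summed level hides differences in both directions: 2 of the 8 were higher and 3 lower at an unadjusted p under 0.05 (4.1% and 6.45% of all clusters), the differences ran from -0.30 to 0.39, and none of the 8 lay within 0.1 of zero. On the somatic side, 8 of 9 Sertoli cell markers (31700 to 33000 against 33600 to 34500), 4 of 5 Leydig cell markers (3810 to 5610 against 5220 to 6440), 8 of 8 macrophage markers (4380 to 4860 against 4960 to 5150) and 1 of 4 peritubular myoid markers (10900 to 11200 against 10500 to 11100) were higher on average in the knockout. Rhox5 of the Sertoli list and Insl3 and Lhcgr of the Leydig list were not analysed here. At that p, 1 Sertoli, 1 Leydig and 3 macrophage markers were higher and 1 Leydig marker was lower. No marker passed the adjusted threshold in limma. The dimmest was Pgk2, a spermatocyte and spermatid gene, at 6.17 in control and 6.13 in knockout arrays. The lowest value over all rows was 2.19, and whether Pgk2 was detected was not tested. Of the 60 genes, 12 were lower without overlap, and control replicate 1 was the lowest control array in Eif5 alone among them. It was the highest control array, or level with the highest, in Eif5a2, Eif2ak1, Eif2b5, Eif1b, Eif3b, Eif3h, Eif4a3 and Eef1a1. In Eif4g3, Eef1e1 and Eif1ad it lay between the other control arrays. In such genes every control array lies above every knockout array by definition. Leaving out control replicate 1 took the number of lower genes at an unadjusted p under 0.05 in limma from 6 to 2. The fall was not particular to that array: the number was also 2 without knockout replicate 3, and 3 without knockout replicate 1. The part of these cell types in the differences of the translation factors was not tested.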

How the data were processed

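Testis RNA of 3 control and 3 knockout samples was measured on 6 arrays. The authors deposited log2 values, made with RMA, which corrects background, sets all arrays to 1 distribution and summarises probes, in Affymetrix Expression Console, per the submitters' processing notes. For software versions, probe annotation and build, the sources used here give nothing. Of 35556 rows, 21789 had 1 gene symbol in the platform annotation, 1621 several and 12146 none. The groups and replicate numbers come from the labels. The comparison of the genotypes used limma 3.58.1 under R 4.3.3, with moderated variances, no covariate and no filter on low values. P-values were adjusted by Benjamini-Hochberg across the 21789 clusters, and 0.05 was the threshold. Intervals are limma's at 95%. Chromosomes come from the RefSeq table of GRCm38.p6, in which all 60 genes matched. The procedure was tested on simulated data.

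The genes, roles and lists were chosen with earlier results of these data known. Named were, in each role, the 3 genes with the smallest p, the 5 largest differences in each direction, sets of paralogues, and the 3 other pathway genes with the smallest p. Any other gene named, namely Eif5b, Eef2, Eif2ak3, Eif4a3l1 and Pabpc1, was chosen after its values were seen. Symbols without a cluster of their own, Eif3j1, Eif3j2 and Eif4ebp3 among them, were not analysed here, and the targeted gene is not reported here, so the genotype labels stand unchecked by the arrays. Alternatives were a replicate block, an intensity trend with a robust prior, all rows, a filter on the dimmest 25% of clusters, centring of the arrays, the mean of a gene's clusters and leaving out each array. No batch is known from the labels.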

Additional observations from a re-analysis of the deposited data

How the results depend on the processing

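No gene of the 60 passed the adjusted threshold of limma in any refit, and Eif5 and Eif2ak2 kept an unadjusted p under 0.05 in all of them. With an intensity trend and a robust prior, 10 genes were lower at that mark in place of 6. In that fit 11.7% of all clusters met the mark in either direction, against 10.6% in the main fit. In the fits without 1 array, 7.22% to 10.9% of all clusters met it. Leaving out 1 array at a time gave 2 to 5 genes lower and 1 to 2 higher, and median differences of -0.0267 to -0.0117 over all 60 genes, -0.0133 to 0.04 over eIF2B and -0.0192 to 0.015 over the elongation factors. Small single differences then changed sign: they ranged from -0.0333 to 0.0217 in Eif2s3x, -0.05 to 0.005 in Eif4ebp2, -0.015 to 0.06 in Eif5a, -0.035 to 0.045 in Eef1a2, -0.01 to 0.0167 in Eif4a1, -0.0117 to 0.0583 in Eif4e, -0.01 to 0.03 in Eif4e2, -0.0783 to 0.0767 in Eif4e1b, -0.0117 to 0.0633 in Eif1a and -0.0733 to 0.0067 in Eif1ax. Centring the arrays on their medians moved the median difference of all 60 genes to 0.0033, of the cap-binding group to 0.0217, of eIF3 to -0.0133 and of the elongation factors to 0.0217, and turned the sign of Eif2s3x (0.01) and Eif4ebp2 (0.0033). The mean of a gene's clusters turned that of Eif5a (-0.0367) and Eif3m (-0.0050). The cause was not tested. With the replicate number as a block, 4 genes were lower and 1 was higher at an unadjusted p under 0.05, where 10.5% of all clusters met that mark. In that fit 0 passed the adjusted threshold. Deviations of same-numbered arrays correlated at 0.166, -0.0536 and 0.170, and those of differently numbered arrays at -0.23 to 0.0843. Control replicates 1 and 3 correlated best with their own number, and control replicate 2 with another number. The labels do not call the arrays pairs, and the main fit did not pair them. The exact permutation test cannot pass 0.05 with 3 arrays a group.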
